A study of Mus musculus with 4 samples.

Results

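The mouse *Oas* family was followed in LSK cells, a sorted fraction (Lin-, Sca-1+, c-Kit+) that holds the hematopoietic stem cells of the fetal liver. Its members were the rows of the deposited gene table named *Oas1a*, *Oas1b*, *Oas1c*, *Oas1g*, *Oas2*, *Oas3*, *Oasl1* and *Oasl2*, which makes 8 of 39186 genes, and all 8 passed the filter on low values. They are described beside lists of related genes. RNA-seq libraries came from C57BL/6 fetal livers, with 2 *Pich*-KO samples and 2 *Pich*-WT samples. The labels give neither the age of the embryos nor whether a sample held one embryo or several. *Pich*-KO embryos carried a germline deletion of a few bases in the second exon of *Pich*, an X-linked gene listed as *Ercc6l*, so the change was not limited to blood cells. The question was how the transcriptome of LSK cells differs without PICH, a helicase found on ultrafine DNA bridges in anaphase.

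OAS proteins sense double-stranded RNA. On binding it, the active enzymes join ATP into short chains with 2′-5′ bonds, named 2-5A, a second messenger of antiviral defence. Most *Oas* genes are classical targets of interferon, which acts on them through a DNA element called the interferon-stimulated response element. The family also holds members that make no 2-5A and act in other ways, among them OASL1, which blocks the translation of *Irf7*.

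The *Oas* genes lie in 2 groups on chromosome 5 of GRCm38. *Oas2*, *Oas3*, *Oas1c*, *Oas1b*, *Oas1g* and *Oas1a* lie within chr5:120730333-120907521, 177 kb, in this order, with genes outside the member list between some of them. *Oasl2* and *Oasl1* lie side by side within chr5:114896936-114937915, 41.0 kb. *Oas1c* and *Oas1b* point away from each other with 120 bases between their starts, and *Oas1a* and *Oas1g* lie on the minus strand with 8642 bases between them. The coding sequences of *Oas1a* and *Oas1g*, each 1101 bases without the stop codon, were identical at 96.7% of aligned bases, against 58.6% to 79.9% for all other pairs of members. *Oas3* had the longest coding sequence, 3414 bases in 16 exons, against 1086 bases for *Oas1c*.

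RefSeq promoter windows (GRCm38.p6, 250 bases before to 50 after the start) were at hand for 6 of 8 members, *Oas1a*, *Oas1c*, *Oas1g*, *Oas3*, *Oasl1* and *Oasl2*. They were searched on both strands for the interferon-stimulated response element, written here as GAAA, any pair of bases and GAAA again. A shorter form leaves out its last base (GAAANNGAA), so the forms overlap. The long form was in the windows of *Oas1a*, *Oas1c*, *Oas1g* and *Oas3*, and in 3.44% of all 32851 windows, while the shorter form was in 8.56%. The 120 bases before the starts of *Oas1a*, *Oas1g* and *Oas3* are shown because they hold these matches just before genes that rose, and the interval between *Oas1c* and *Oas1b* because the matches there lie between a gene that rose and a gene that did not pass the test. Capitals mark matches to either form.
*Oas1a*, chr5:120907526-120907645, minus strand: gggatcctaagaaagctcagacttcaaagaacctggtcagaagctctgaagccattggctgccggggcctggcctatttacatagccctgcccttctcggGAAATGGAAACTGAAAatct
*Oas1g*, chr5:120887614-120887733, minus strand: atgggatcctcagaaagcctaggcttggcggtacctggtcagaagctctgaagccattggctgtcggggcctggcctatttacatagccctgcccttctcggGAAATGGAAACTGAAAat
*Oas1c* to *Oas1b*, chr5:120812515-120812634, plus strand, read toward *Oas1b*: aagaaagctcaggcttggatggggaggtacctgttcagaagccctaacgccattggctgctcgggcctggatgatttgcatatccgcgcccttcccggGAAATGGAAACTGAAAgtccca
*Oas3*, chr5:120777660-120777779, minus strand: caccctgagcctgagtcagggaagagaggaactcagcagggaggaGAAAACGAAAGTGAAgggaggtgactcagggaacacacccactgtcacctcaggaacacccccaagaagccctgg

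The same 16 bases, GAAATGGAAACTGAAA, stood in capitals before *Oas1a*, before *Oas1g* and at the *Oas1b* end of the interval shared with *Oas1c*. They ran from position -20 to -5 of *Oas1a* and from -18 to -3 of *Oas1g*, counted from the RefSeq start, and from -22 to -7 of the annotated *Oas1b* start. In the *Oas1c* window they were on the opposite strand, from -114 to -99. On either strand this run was in 7 of the 32851 windows, those of *Oas1a*, *Oas1c*, *Oas1g*, *Apol9a* and *Apol9b*. The *Oas3* match ran from -75 to -61. *Oas1a* also held the STAT form TTCNNNGAA, its own reverse complement, at -98 to -90 (8.30% of all windows). The *Oasl1* and *Oasl2* windows held none of these forms, which says only that these letters are not in these windows.

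The samples held between 14703215 and 20933919 reads on genes. The spread within a group exceeded sampling noise (chi-square per degree of freedom 14.7 for *Pich*-KO and 8.18 for *Pich*-WT). The level of *Ercc6l* was higher in *Pich*-KO (log2 fold change 0.73, adjusted p = 0.00887 from limma), and since the deletion leaves most of the transcript to be counted, it does not check the labels. *Pich*-WT sample 2 stood apart with 0 reads on 4 Y-linked genes, against 1607 to 2848 in the other samples. It also had 699 reads on *Xist*, against 4 to 13 in the others. By these counts it was female and the other samples male, so sex was not balanced between the groups. All 8 listed markers of LSK cells were detected, summing to 1046 to 1628 CPM (reads scaled to the reads on genes of the sample) in *Pich*-KO and 1324 to 1444 CPM in *Pich*-WT. Of these, 1 was higher in *Pich*-KO, *Ly6a*, which encodes the sort antigen Sca-1 (log2 fold change 1.74), and 3 were lower, *Hlf* (-2.37), *Mecom* (-2.10) and *Slamf1* (-0.90), while *Kit*, *Cd34*, *Flt3* and *Cd48* did not pass the test. All 12 macrophage markers were lower in *Pich*-KO, summing to 480 to 556 CPM against 3806 to 4138 CPM, as were all 7 erythroid markers, at 1571 to 1707 CPM against 7461 to 9378 CPM. Of 4 hepatocyte markers 3 were lower (130 to 165 against 235 to 252 CPM), of 4 antigens of the lineage gate 1 was lower (6.78 to 16.9 against 17.5 to 21.3 CPM), and of 4 plasmacytoid dendritic cell markers 1 was higher (14.9 to 33.8 against 28.1 to 35.3 CPM). No marker was at 0 in all samples. The part of these differences in the results on the *Oas* genes and the related lists was not tested.

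Of the members, 7 of 8 were higher in *Pich*-KO than in *Pich*-WT LSK cells, 0 were lower and *Oas1c* did not pass the test. The test was limma on log2(normalized count + 1), with Benjamini-Hochberg adjustment over all 32428 genes tested and a threshold of 0.05 on the adjusted p, and fold changes below are on this scale. Across all genes tested, 7.58% were called higher and 9.6% lower. The members' median log2 fold change was 2.85, beside 0.02 over all genes tested. Both *Pich*-KO samples lay above both *Pich*-WT samples for all 8 members, as they did for 28.9% of all genes tested. The same 7 members passed when the recovered reads were tested with edgeR's quasi-likelihood method, which called 18.6% of 16608 genes higher. In bulk RNA, a change in the number of cells that express a gene and a change in its RNA per cell cannot be told apart.

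**Figure D1:**
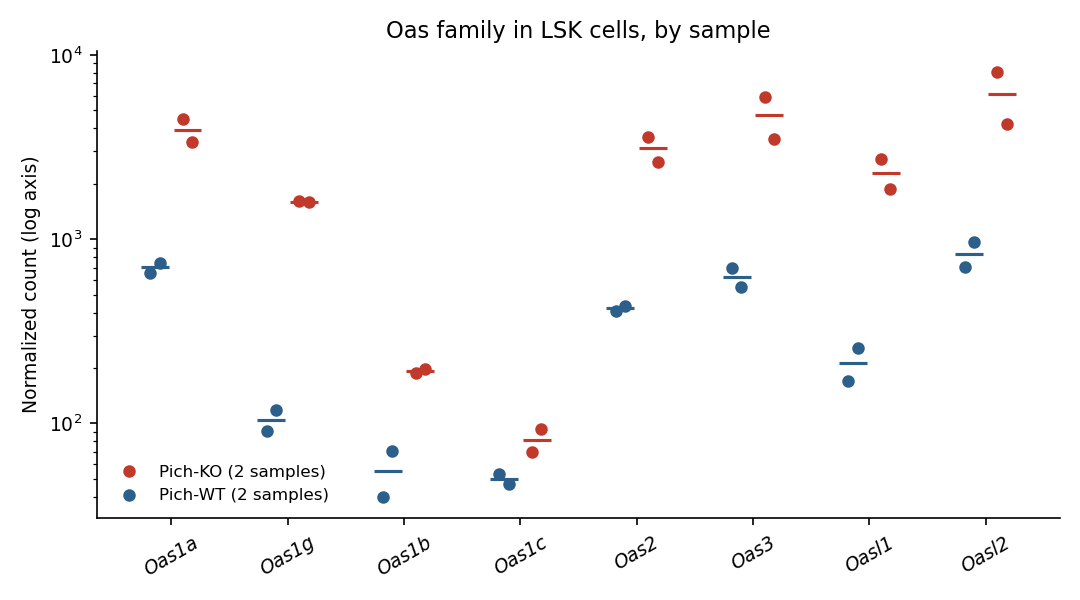
Normalized count (log axis) of the 8 members in each sample. Points are single samples (red, 2 Pich-KO; blue, 2 Pich-WT) and short lines are group means. For all 8 members the red points lie above the blue ones, by little for Oas1c.

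*Oas1a* and *Oas1g* encode closely related active synthetases. *Oas1g* (ENSMUSG00000066861, chr5:120876142-120887613, minus strand) had 1614 and 1587 normalized counts in *Pich*-KO samples 1 and 2 and 91.4 and 118 in *Pich*-WT samples 1 and 2. The *Pich*-KO values nearly coincided and lay far above both *Pich*-WT values. Its log2 fold change, 3.93 (standard error 0.18, 95% interval 3.51 to 4.35, limma adjusted p = 2.2e-05), ranked 14 of 32428 genes. *Oas1a* (ENSMUSG00000052776, chr5:120896256-120907521, minus strand) had 4471 and 3385 normalized counts in *Pich*-KO against 660 and 747 in *Pich*-WT. Per length it was the more abundant gene of the pair in every sample, but it rose by less, with a log2 fold change of 2.47 (standard error 0.15, 95% interval 2.11 to 2.83, limma adjusted p = 6.7e-05).

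Of the 50-base stretches of *Oas1a* transcripts 57.6% and of those of *Oas1g* 45.7% also occur in transcripts of another gene. How reads shared by both were counted is not given in the sources used here, so the split between them is uncertain. Their sum does not depend on that split if each shared read was counted for a single gene. Reads that were dropped would be missing from it, and reads counted for both genes would inflate it. The sum came to 6085 and 4972 normalized counts in *Pich*-KO against 751 and 865 in *Pich*-WT, a ratio of means of 6.84. The exact two-sided permutation p was 0.333, the smallest that 2 against 2 samples allow.

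*Oas1b* and *Oas1c*, the pair that shares 120 bases between starts, were the least abundant members per length. *Oas1b* is known for resistance to flaviviruses, and the reference strain, C57BL/6, carries a truncated allele, so the annotation lists it as a polymorphic pseudogene. *Oas1b* (ENSMUSG00000029605, chr5:120812635-120824163, plus strand) had 189 and 197 normalized counts in *Pich*-KO against 39.9 and 71 in *Pich*-WT. The groups did not overlap, the *Pich*-WT samples differed from each other, and the log2 fold change was 1.84 (standard error 0.32, 95% interval 1.10 to 2.57, limma adjusted p = 0.00554). *Oas1c* (ENSMUSG00000001166, chr5:120800194-120812514, minus strand) had 69.8 and 93.2 normalized counts in *Pich*-KO against 53.1 and 47 in *Pich*-WT. The gap between groups was no wider than the gap between the *Pich*-KO samples, and the log2 fold change of 0.68 (standard error 0.30, 95% interval -0.02 to 1.38) did not pass the test (limma adjusted p = 0.187). Of the 50-base stretches of *Oas1c*, 15.1% occur in other genes, and an antisense gene, *Gm43069*, covers 5430 bases of its locus with 0 to 2.27 normalized counts.

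OAS2 and OAS3 are larger proteins built from repeated OAS units, and OAS3 is known to bind long double-stranded RNA. *Oas2* (ENSMUSG00000032690, chr5:120730333-120749853, minus strand) had 3607 and 2610 normalized counts in *Pich*-KO against 409 and 434 in *Pich*-WT. *Oas3* (ENSMUSG00000032661, chr5:120753098-120777661, minus strand) had 5928 and 3518 in *Pich*-KO against 698 and 551 in *Pich*-WT. These neighbours on the chromosome rose to nearly the same extent, with log2 fold changes of 2.86 (standard error 0.17, limma adjusted p = 5.4e-05) and 2.88 (standard error 0.23, limma adjusted p = 0.00018). The *Pich*-KO samples differed more for *Oas3*, but in each gene the lower of them was far above both *Pich*-WT samples.

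OASL1 and OASL2 carry ubiquitin-like domains after the OAS unit. OASL1 makes no 2-5A, whereas mouse OASL2 is an active synthetase. *Oasl1* (ENSMUSG00000041827, chr5:114923240-114937915, plus strand) had 2730 and 1864 normalized counts in *Pich*-KO against 170 and 256 in *Pich*-WT, and its log2 fold change was 3.43 (standard error 0.24, limma adjusted p = 0.000106). *Oasl2* (ENSMUSG00000029561, chr5:114896936-114912234, plus strand) had 8080 and 4243 in *Pich*-KO against 703 and 964 in *Pich*-WT, and its log2 fold change was 2.83 (standard error 0.28, limma adjusted p = 0.000416). *Oasl2* had the widest spread between *Pich*-KO samples among the members. In both genes *Pich*-WT sample 1 was the lower control and *Pich*-KO sample 1 the higher knockout.

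Without *Pich*-WT sample 2, the library that stood apart, the log2 fold changes of the 7 members were 2.56 for *Oas1a*, 2.24 for *Oas1b*, 4.11 for *Oas1g*, 2.91 for *Oas2*, 2.71 for *Oas3*, 3.73 for *Oasl1* and 3.06 for *Oasl2*, and that of *Oas1c* was 0.59. With either group reduced to 1 sample limma called 0 of 32428 genes, with 5757 to 8599 genes at an unadjusted p under 0.05. The fit of edgeR without *Pich*-WT sample 2 was added after the data had been seen. It gave log2 fold changes from 2.30 for *Oas1b* to 4.16 for *Oas1g* among these 7 members, and 0.65 for *Oas1c*. A lone *Pich*-WT sample has no spread of its own and is assumed to vary like the *Pich*-KO samples, so only the effect sizes are given.

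The *Pich*-KO samples differed beyond counting error for 5 members. The ratio of sample 1 to sample 2 was 1.90 for *Oasl2* (exact 95% interval of the read counts 1.83 to 1.98), 1.68 for *Oas3* (1.61 to 1.76), 1.46 for *Oasl1*, 1.38 for *Oas2* and 1.32 for *Oas1a* (1.26 to 1.38). For *Oas1g* it was 1.02 (0.94 to 1.10), for *Oas1b* 0.96 (0.77 to 1.19) and for *Oas1c* 0.75 (0.53 to 1.05), and these intervals all include 1. Among 10544 genes with a mean of at least 100, the same ratio had a median of 1.01, with 90% of genes between 0.73 and 1.74, so *Oasl2* was the only member outside this range. In *Pich*-WT the ratio also differed from 1 beyond counting error for *Oas1a* (0.88), *Oas1b* (0.56), *Oas3* (1.27), *Oasl1* (0.66) and *Oasl2* (0.73). There 90% of the same genes lay between 0.81 and 1.38, with *Oas1b*, *Oas1g* (0.77), *Oasl1* and *Oasl2* outside. So the spread was not particular to *Pich*-KO. The intervals cover counting error only. In *Pich*-KO other interferon-linked genes had ratios from 0.90 for *Irf3* and 1.09 for *Eif2ak2* to 1.90 for *Irf7* and 2.10 for *Ddx58*.

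**Figure D2:**
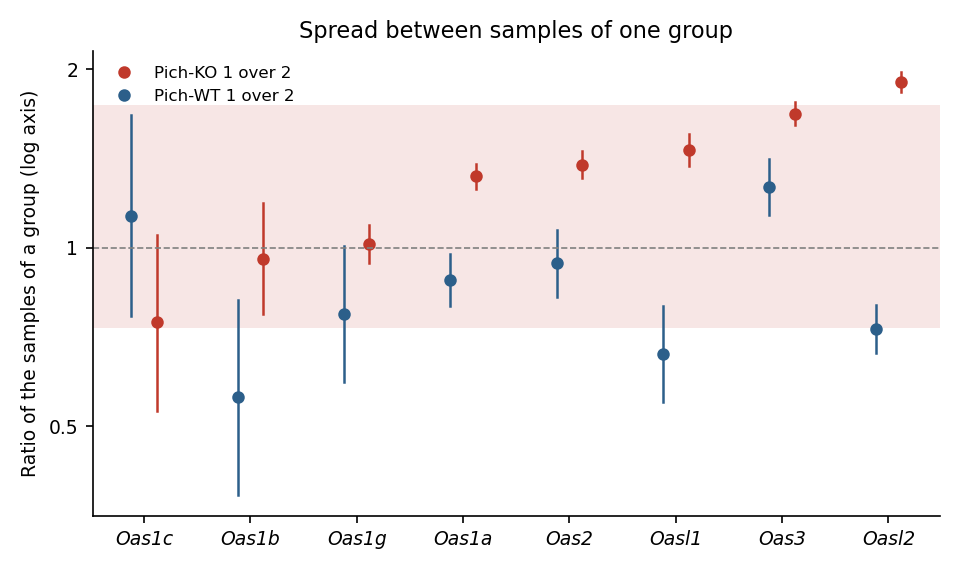
Ratio of the normalized counts of sample 1 to sample 2 within a group (log axis) for the 8 members, in order of the Pich-KO ratio (red, Pich-KO; blue, Pich-WT). Bars are exact 95% intervals of the read counts, and the shaded band holds 90% of 10544 genes for Pich-KO (0.73 to 1.74). Oasl2, at 1.90, lies above the band, and the intervals of Oas1c, Oas1b and Oas1g include 1 in Pich-KO. In Pich-WT those of Oas1c, Oas1g and Oas2 include 1. The band for Pich-WT (0.81 to 1.38) is not drawn.

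Levels of different genes were compared as RPKM, reads scaled to the length of the gene's exons in kilobases and to the depth of the sample. These levels are of the sorted samples as a whole, which also held reads on macrophage and erythroid markers. In the *Pich*-WT samples *Oas1a* led with 23.4 ± 2.88 RPKM (SD, n = 2). *Oasl2* followed with 8.23 ± 2.10, then *Oas2* with 5.94 ± 0.46, *Oas3* with 5.52 ± 0.73 and *Oasl1* with 5.14 ± 1.65. The lowest were *Oas1g* with 2.81 ± 0.60, *Oas1b* with 1.76 ± 0.75 and *Oas1c* with 1.30 ± 0.067. The samples of *Oas2* and *Oas3*, of *Oas3* and *Oasl1*, and of *Oas1b* and *Oas1c* overlapped, so these neighbours in the order did not differ beyond their spread. In *Pich*-KO *Oas1a* led again with 125 ± 25.2 RPKM (SD, n = 2), and *Oasl2* (58.2 ± 25.9), *Oasl1* (53.0 ± 14.4), *Oas2* (42.0 ± 9.77), *Oas1g* (41.1 ± 0.74) and *Oas3* (40.2 ± 14.7) formed a middle group in which each neighbour overlapped the next. *Oas1b*, at 5.81 ± 0.14 RPKM, and *Oas1c*, at 2.04 ± 0.40 RPKM, lay below this group and apart from each other.

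The summed RPKM of the 8 members was 431 and 304 in *Pich*-KO against 48.7 and 59.5 in *Pich*-WT, a ratio of means of 6.79 (exact two-sided permutation p = 0.333, the smallest possible). *Oas1a* made up 33.2% and 35.4% of this sum in *Pich*-KO against 43.9% and 42.8% in *Pich*-WT. *Oas1g* made up 9.65% and 13.4% in *Pich*-KO against 4.90% and 5.44% in *Pich*-WT, so its share was larger in both knockout samples. *Oasl1* went the same way, from 8.16% and 10.6% in *Pich*-WT to 14.6% and 14.1% in *Pich*-KO. *Oas2* kept to between 10.5% and 11.6% in all 4 samples.

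**Figure D3:**
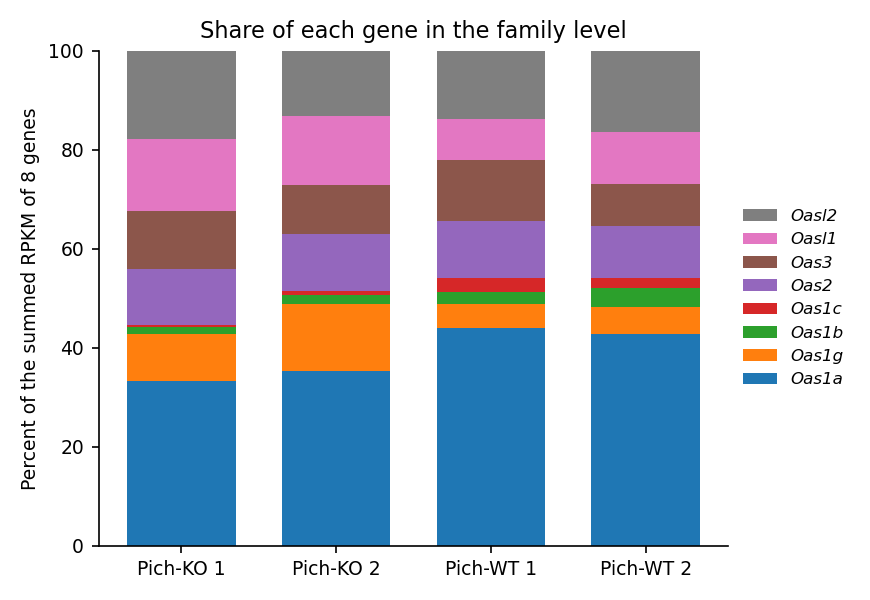
Share of each member in the summed RPKM of the 8 members, in percent, for each of the 4 samples (stacked bars). The Oas1g share is larger in both Pich-KO samples (9.65% and 13.4%) than in the Pich-WT samples (4.90% and 5.44%), and the Oas1a share is smaller.

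Ratios of members within a sample were compared for 6 pairs, each with an exact two-sided permutation test whose smallest possible p is 0.333 (0.4 after Benjamini-Hochberg adjustment over the 6), so none could pass. The log2 ratio of *Oas1g* to *Oas1a* was -1.59 ± 0.27 in *Pich*-KO and -3.07 ± 0.13 in *Pich*-WT (SD, n = 2; exact p = 0.333). The groups did not overlap, although this ratio depends on how shared reads were split. The log2 ratio of *Oas3* to *Oas2* was -0.09 ± 0.20 in *Pich*-KO and -0.11 ± 0.30 in *Pich*-WT, and the samples overlapped (SD, n = 2; exact p = 1). For *Oas1b* to *Oas1c* it was 1.53 ± 0.25 in *Pich*-KO and 0.36 ± 0.71 in *Pich*-WT, also without overlap (SD, n = 2; exact p = 0.333). The remaining pairs did not overlap either (SD, n = 2; exact p = 0.333 for each). *Oas1c* to *Oas1a* was -5.94 ± 0.58 in *Pich*-KO and -4.16 ± 0.25 in *Pich*-WT. *Oas1b* to *Oas1a* was -4.42 ± 0.33 and -3.80 ± 0.46, and *Oasl1* to *Oasl2* was -0.09 ± 0.27 and -0.69 ± 0.10, in the same order.

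Of 7 further genes of the 2-5A pathway given here, 2 were higher, 1 was lower and 4 did not pass the test. *Abce1*, which recycles ribosomes, rose from 3761 and 3677 normalized counts in *Pich*-WT to 6601 and 6315 in *Pich*-KO (log2 fold change 0.80, limma adjusted p = 0.000573). *Pde12*, a phosphodiesterase that breaks down 2-5A, had 1321 and 1325 in *Pich*-KO against 952 and 852 in *Pich*-WT (0.55, limma adjusted p = 0.019). *Akap7*, a kinase anchor with a 2-5A phosphodiesterase domain, fell from 275 and 290 in *Pich*-WT to 77.4 and 68.2 in *Pich*-KO (-1.94, limma adjusted p = 0.000768). The enzymes that degrade 2-5A thus did not change in one direction. *Oas1d*, *Oas1e*, *Oas1f* and *Oas1h*, further *Oas1* copies, had at most 5.68 normalized counts in any sample and none passed the test.

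Among 7 genes of interferon signalling given here, 1 was higher, 2 were lower and 4 did not pass the test. Since further genes of this list are not reported, these counts do not describe the list as a whole. *Irf7*, an amplifier of interferon production, rose by a log2 fold change of 2.22. It had 9487 and 4981 normalized counts in *Pich*-KO against 1356 and 1615 in *Pich*-WT, and its *Pich*-KO samples differed by as much as those of *Oasl2*. The receptor chain *Ifnar1* (-0.56) and the kinase *Jak1* (-0.75) were lower, and *Ifnar2*, *Tyk2*, *Irf1* and *Irf3* had log2 fold changes between -0.27 and 0.19 that did not pass the test.

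Among 8 other sensors and effectors of double-stranded RNA, 6 were higher and 2 were lower (median log2 fold change 1.73). *Eif2ak2*, the kinase PKR, rose by a log2 fold change of 1.86, *Ifih1* (MDA5) by 1.84, *Ddx58* (RIG-I) by 1.41 and *Dhx58* (LGP2) by 2.09. *Zbp1*, a sensor of Z-form nucleic acid, rose by 2.37, and *Adar*, which edits double-stranded RNA, by 1.62. These values lie below the median of the *Oas* members, without a test of that difference. *Mavs*, the adaptor of RIG-I and MDA5, fell by 0.59 on the log2 scale, and the endosomal receptor *Tlr3* fell by 2.33.

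**Figure D4:**
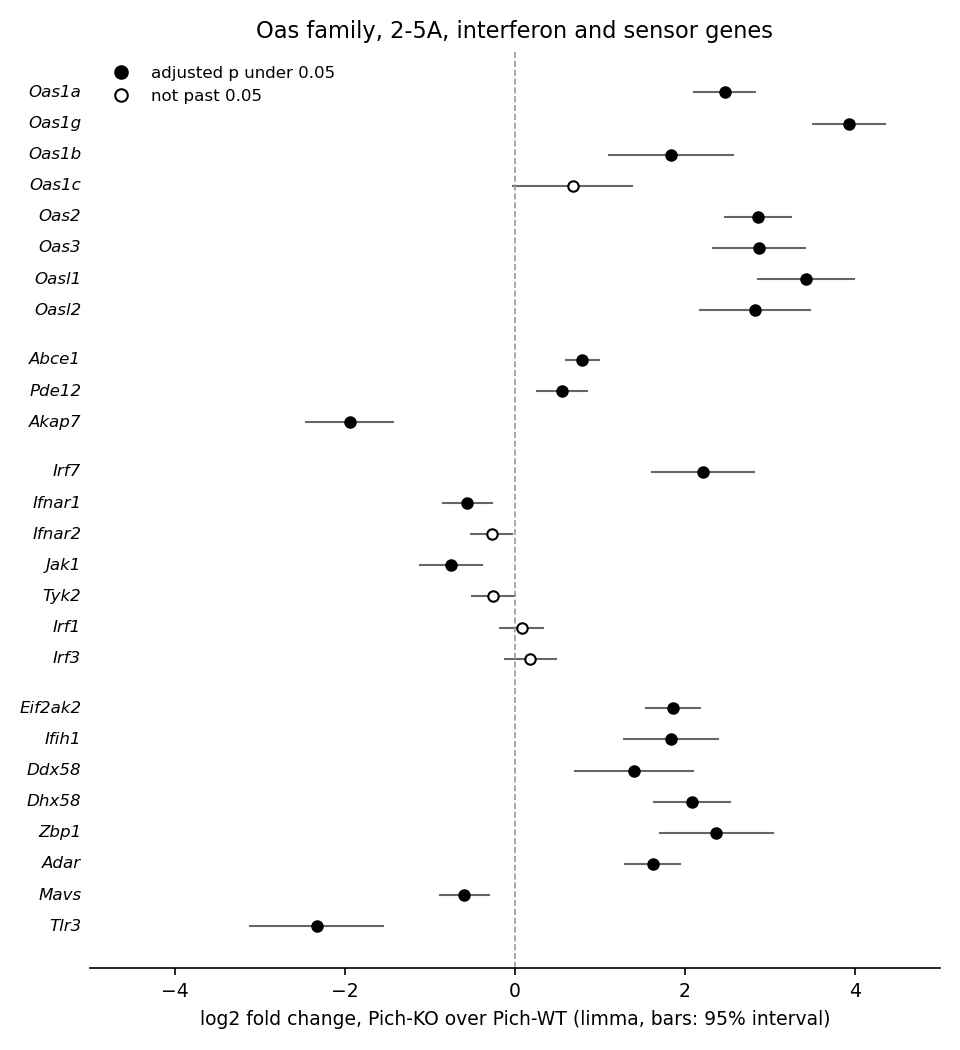
log2 fold change (Pich-KO over Pich-WT, limma) of the members, of 2-5A pathway genes, of interferon signalling genes and of double-stranded RNA sensors, in this order from the top. Bars are 95% intervals, filled points passed an adjusted p of 0.05 and open points did not; the Oas1 copies at the limit of detection are left out. Oas1g is highest at 3.93 and Tlr3 lowest at -2.33.

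Within 200 kb of either group the table listed 38 genes of other names, of which 34 were tested: 2 were higher, 2 were lower and 30 did not pass the test, with a median log2 fold change of -0.07. Over all genes tested 7.58% were higher and 9.6% lower, so these counts do not set the flanks apart from other genes. *Ddx54*, an RNA helicase, rose by a log2 fold change of 0.54, *Slc8b1*, a mitochondrial sodium-calcium exchanger, fell by 0.73, and *Ankrd13a* fell by 3.04, from 8429 and 8485 normalized counts in *Pich*-WT to 1616 and 655 in *Pich*-KO. The other gene that rose, *Gm13822*, lies between *Oasl2* and *Oasl1* on the strand opposite to *Oasl1* and overlaps the first 38 bases of the *Oasl1* locus. It had 73.1 and 52.3 normalized counts in *Pich*-KO against 5.47 and 12 in *Pich*-WT (log2 fold change 2.78, limma adjusted p = 0.00602). The library kit named in the labels does not mark strand, so in the overlap its reads and those of *Oasl1* cannot be told apart.

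**Figure D5:**
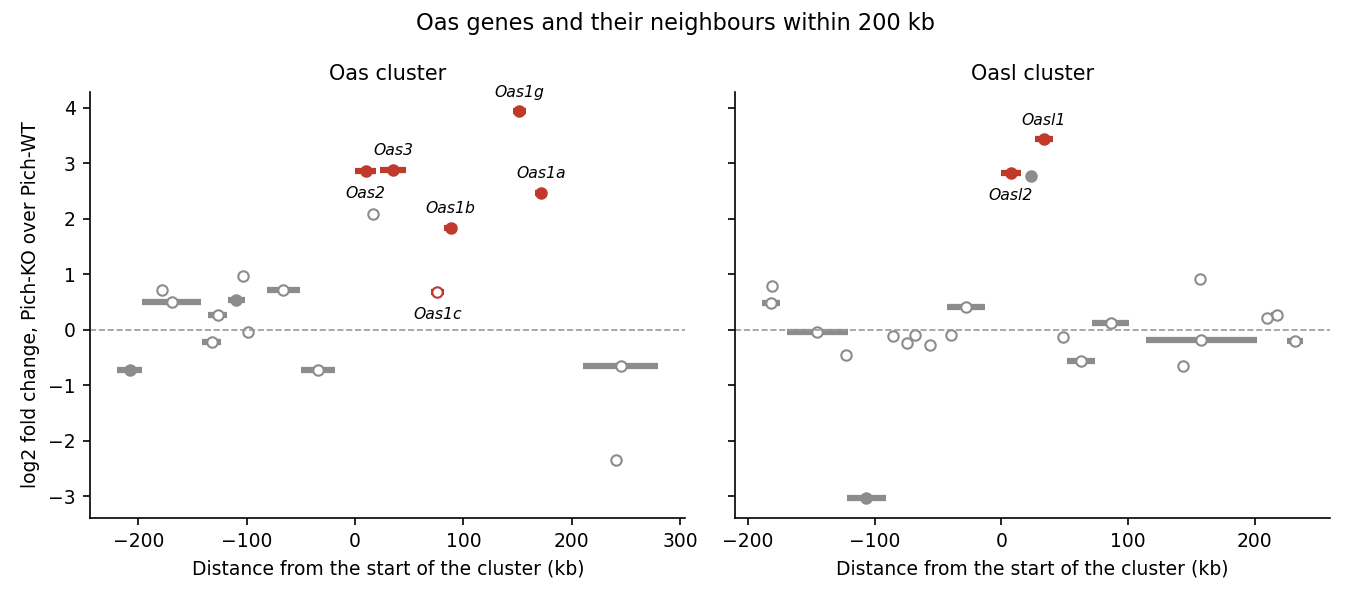
log2 fold change (Pich-KO over Pich-WT) of genes by distance in kb from the start of each Oas group, with bars as long as each gene. Red, members; grey, other tested genes within 200 kb; filled points passed an adjusted p of 0.05. The 7 members that passed lie between 1.84 and 3.93, and of the genes outside the groups 1 of 32 was higher and 2 were lower.

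Genes outside the family were ranked by how closely their profile over the 4 samples followed the mean profile of the members, as the root mean square difference of log2(normalized count + 1) after centring each gene, among genes with a mean of at least 100. The 5 closest were *Nlrc5* (0.051), an activator of MHC class I genes, *Rnf213* (0.065), a ubiquitin ligase, *Parp14* (0.074), an ADP-ribosyltransferase, *Cmpk2* (0.088), a mitochondrial nucleotide kinase, and *Tarbp1* (0.11), an RNA methyltransferase. *Nlrc5* had 1847 and 1458 normalized counts in *Pich*-KO against 267 and 297 in *Pich*-WT, close in shape to *Oas1a*. *Cmpk2* had 4135 and 2792 in *Pich*-KO against 490 and 580 in *Pich*-WT. With 4 samples in 2 groups, any gene that rose to a similar extent in both *Pich*-KO samples comes out as close.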

How the data were processed

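RNA-seq was done on sorted fetal liver LSK cells of 2 groups, *Pich*-KO and *Pich*-WT, with 2 samples each. The authors deposited 1 table of 39186 genes whose signal is reads on a gene divided by a size factor per sample, and the table's columns of the authors' own comparison (fold changes and p-values) were not used. Bowtie 0.12.2 is named in the submitters' processing notes, as are mm8 and mm9, yet 97.8% of 39131 matched genes had their GRCm38 start and end (GENCODE M21), so coordinates are on GRCm38. The counter and its strand setting are not given in the sources used here. Dividing by each sample's step gave whole reads for 100% of values (tolerance 0.001).

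The members and the gene lists were chosen with earlier results of these data known. Genes with a mean of at least 1 were tested with limma 3.58.1 (prior variance following the mean) on log2(value + 1) in R 4.3.3. On the recovered reads, edgeR 4.0.16 and DESeq2 1.42.0 were alternatives. The procedure was tested on simulated data. These held no differences of sex or of cell types between samples, so that test does not cover them. Whether samples came from separate embryos is not stated, so p-values measure only the spread between these samples. All 8 members, all genes of the lists, neighbours past the threshold and the 5 genes of closest profile could be named. Values of further genes of these lists are not reported here. *Apol9a* and *Apol9b* were named after the promoter search.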

Additional observations from a re-analysis of the deposited data

How the results depend on the processing

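The call of 7 members higher was the same with a pseudocount of 0.1, without the filter on the mean, with at least 10 reads in every sample, with a minimum absolute log2 fold change of 1, and with edgeR (TMM or upper-quartile scaling) and DESeq2 on the recovered reads. With the replicate number as a block it was also 7, and the block changed the calls over all genes to 3122 higher and 3874 lower. Same-numbered samples did not deviate together (r = 0.01 over 10544 genes), so the values give no ground for a block. With a single pair of samples per group, this cannot show that same-numbered samples were unrelated. All 8 members had a positive log2 fold change in each of 16 alternatives, from 3.75 to 4.16 for *Oas1g* and from 0.47 to 0.93 for *Oas1c*. In the limma alternatives the sign could not change, because both *Pich*-KO samples lay above both *Pich*-WT samples for all 8. The edgeR and DESeq2 fits rescaled the reads of the same samples, so they are not independent support either.

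Without the variance trend limma called 0 genes of any list and 0 genes in all, with 7377 at an unadjusted p under 0.05. Leaving out each sample in turn gave 0 to 0 calls for every list, because limma then called 0 genes in all. With edgeR, added after seeing the data, the same step gave log2 fold changes from 0.52 to 0.93 for *Oas1c* and from 3.77 to 4.16 for *Oas1g*. Without the filter on the mean, 1 interferon signalling gene was lower rather than 2, and 5 double-stranded RNA sensors were higher rather than 6. When calls also needed an absolute log2 fold change of 1, 0 genes of the 2-5A pathway were higher, 0 interferon signalling genes were lower, 1 double-stranded RNA sensor was lower, and 1 neighbour was higher and 1 lower. With at least 10 reads in every sample 1 neighbour was higher. The causes of these changes were not tested. With 2 samples a group, differences within the spread of *Oas1c* were not detectable.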

Other observations

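*Apol9a* and *Apol9b*, the genes outside the family whose RefSeq promoter windows also held the 16 bases shared by *Oas1a*, *Oas1g* and the *Oas1c* to *Oas1b* interval, were looked up after the promoter search. They encode apolipoprotein L proteins and are near-identical copies, so reads may have been split between them. *Apol9a* had 113 and 54.6 normalized counts in *Pich*-KO against 2.34 and 3 in *Pich*-WT (log2 fold change 4.45, standard error 0.52, limma adjusted p = 0.000932). *Apol9b* had 175 and 67.1 in *Pich*-KO against 1.56 and 13 in *Pich*-WT (log2 fold change 4.19, standard error 0.81, limma adjusted p = 0.00932). In both, *Pich*-KO sample 1 exceeded sample 2. The ratio was 2.08 for *Apol9a* (exact interval of the read counts 1.46 to 2.99) and 2.60 for *Apol9b* (1.92 to 3.57). These ratios lay above those of the 8 members, but both intervals overlap that of *Oasl2* (1.83 to 1.98). Whether they differ from the *Oasl2* ratio was not tested.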
